A study of Homo sapiens with 4 samples.

Results

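The 10 genes described here set the pace of the G1 phase of the cell cycle. They are the D-type cyclins CCND1, CCND2 and CCND3, the kinases CDK4 and CDK6, the inhibitors CDKN1A, CDKN1B, CDKN2A and CDKN2B, and the pocket protein gene RB1. They were taken by name from the 19970 protein-coding genes of GENCODE release 44 (hg38) on chromosomes 1 to 22 and X, by a rule that uses no measured value. A peak was counted for a gene when its summit lay in the gene body or within 100 kb of the gene start, and a loop when one of its 5 kb anchors lay within 5 kb of a transcript start. This gave 197 of 96855 SMC1 peaks, 105 of 62869 CTCF peaks, 68 of 28012 loops in the list labelled SMC1 and 180 of 80487 loops in the list labelled CTCF.

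The data are HiChIP, a method that enriches ligated DNA contacts by immunoprecipitation of a bound protein, from HG00731, a lymphoblastoid cell line (LCL), that is, B cells kept growing by Epstein-Barr virus. SMC1, a subunit of cohesin, was precipitated after dual cross-linking with formaldehyde (FA) and EGS, a longer amine-reactive cross-linker, and CTCF after FA alone. The cells carried no edited allele and received no treatment in either group, and both groups are 1 line. Since the target and the fixation change together, the difference between antibody and cross-linking cannot be told apart. The authors pooled 2 biological replicates per target before calling, so each target has 1 peak list and 1 loop list, there is no replicate error on any value below, and no test between the targets was possible. Intervals are 95% intervals, Wilson for shares and exact Poisson for read pairs, and cover counting error only.

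One matter of labelling bears on every loop value. The caller keeps a pair of bins when at least 1 of them holds a peak of the target. Of the 28012 loops labelled SMC1, 28012 had a CTCF peak at 1 anchor or both and 28001 had an SMC1 peak. Of the 80487 loops labelled CTCF, 80487 had an SMC1 peak and 76742 a CTCF peak. The sizes of both loop lists are also those that the study's text gives for the other target. Loop lists are therefore named by their labels only, and no statement below depends on which antibody gave which list. The peak lists are not touched by this.

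In G1, D-type cyclins bind CDK4 and CDK6, and the active kinases phosphorylate the RB1 protein, which then releases E2F transcription factors and lets the cell enter S phase. The INK4 inhibitors p16 and p15, from CDKN2A and CDKN2B, block CDK4 and CDK6 directly, while the CIP/KIP proteins p21 and p27, from CDKN1A and CDKN1B, mainly block the cyclin-CDK2 complexes that act later. B cells rely on cyclins D2 and D3, cyclin D1 is normally silent in them, and Epstein-Barr virus is known to raise cyclin D2 and to restrain p16 in the cells it transforms. Cohesin extrudes loops of DNA and halts at CTCF, most readily when the CTCF motif points into the loop.

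The sequences below are shown because the direction of the CTCF motif can be set beside the direction of the loops of each gene. A 19 bp motif (ngccannagggggcgnnnn, in which n marks a position where no single base was found in most sites) was learned from the 3000 CTCF summits with the highest −log10 q, and both strands were searched. The site given for each gene, by a rule added after seeing the data, is the best match within 200 bp of the summit of the strongest CTCF peak in the anchor of the gene that carried the most loops. Matches of at least 10 bits were found within 200 bp of 52.2% of all CTCF summits and of 20.3% of positions 1000 bp away. Sequences are from hg38, read 5′ to 3′ on the strand of the motif, with the motif in capitals.
CCND1 gene anchor (chr11:69643486-69643534, minus strand): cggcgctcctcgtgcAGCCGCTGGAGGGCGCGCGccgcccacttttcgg
CCND2 gene anchor (chr12:4277095-4277143, minus strand): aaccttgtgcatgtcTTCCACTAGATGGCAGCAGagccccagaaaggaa
CCND3 gene anchor (chr6:42044372-42044420, minus strand): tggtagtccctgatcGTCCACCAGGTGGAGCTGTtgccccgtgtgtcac
CDK4 gene anchor (chr12:57756905-57756953, plus strand): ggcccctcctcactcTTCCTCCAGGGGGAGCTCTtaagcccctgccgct
CDK6 gene anchor (chr7:92833116-92833164, minus strand): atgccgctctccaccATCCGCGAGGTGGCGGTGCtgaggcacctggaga
CDKN1A gene anchor (chr6:36680594-36680642, minus strand): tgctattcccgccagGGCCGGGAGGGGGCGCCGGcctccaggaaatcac
CDKN1B gene anchor (chr12:12704824-12704872, minus strand): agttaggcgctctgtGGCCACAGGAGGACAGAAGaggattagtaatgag
CDKN2A gene anchor (chr9:21995800-21995848, minus strand): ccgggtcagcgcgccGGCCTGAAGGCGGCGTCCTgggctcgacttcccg
CDKN2B gene anchor (chr9:22009360-22009408, minus strand): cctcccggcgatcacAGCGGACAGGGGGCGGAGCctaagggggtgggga

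The RB1 gene anchors held no CTCF summit. The next 4 sequences are the best matches at the strongest CTCF peak among the partner anchors, that is, the far ends of the loops, of CCND2, CDKN1A, both INK4 genes and RB1. They are shown because the first 3 lie opposite a gene anchor printed above. They are not the full set. Partner sites of CCND3 (10.8 bits, plus strand), CCND1 (8.5 bits, plus strand) and CDK6 (9.7 bits, minus strand) also lie opposite one and are not printed. Those of CCND1 and CDK6 are below the minimum of 10 bits.
CCND2 partner anchor (chr12:4107543-4107591, plus strand): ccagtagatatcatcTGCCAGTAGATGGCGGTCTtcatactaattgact
CDKN1A partner anchor (chr6:36623592-36623640, plus strand): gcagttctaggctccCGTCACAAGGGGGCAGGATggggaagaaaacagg
CDKN2A and CDKN2B partner anchor (chr9:21813141-21813189, plus strand): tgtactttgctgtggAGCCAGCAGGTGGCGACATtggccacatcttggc
RB1 partner anchor (chr13:48580365-48580413, minus strand): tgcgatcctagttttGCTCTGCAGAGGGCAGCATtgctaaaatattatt

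Most of the 10 genes had a summit within 1 kb of a start and a loop. An SMC1 summit lay within 1 kb of a transcript start in 8 of 10 genes, against 62.6% of all protein-coding genes, and a CTCF summit in 8 of 10, against 46.7%. Within 500 bp, these counts were 6 for SMC1 and 4 for CTCF, and the share of all genes was not computed at that limit. At least 1 loop labelled SMC1 was found for 9 of 10, against 35.1%, and at least 1 loop labelled CTCF for all 10, against 59.0%. The median gene of the 10 had 6.5 loops labelled SMC1 and 11.5 labelled CTCF, whereas the median of all genes was 0 and 1. The 10 genes also had more annotated starts, at a median of 8 against 5, and each start widens the search for loops. The median numbers of peaks were closer to those of all genes, with 15.5 against 12 for SMC1 and 10.5 against 8 for CTCF.

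**Figure D1:**
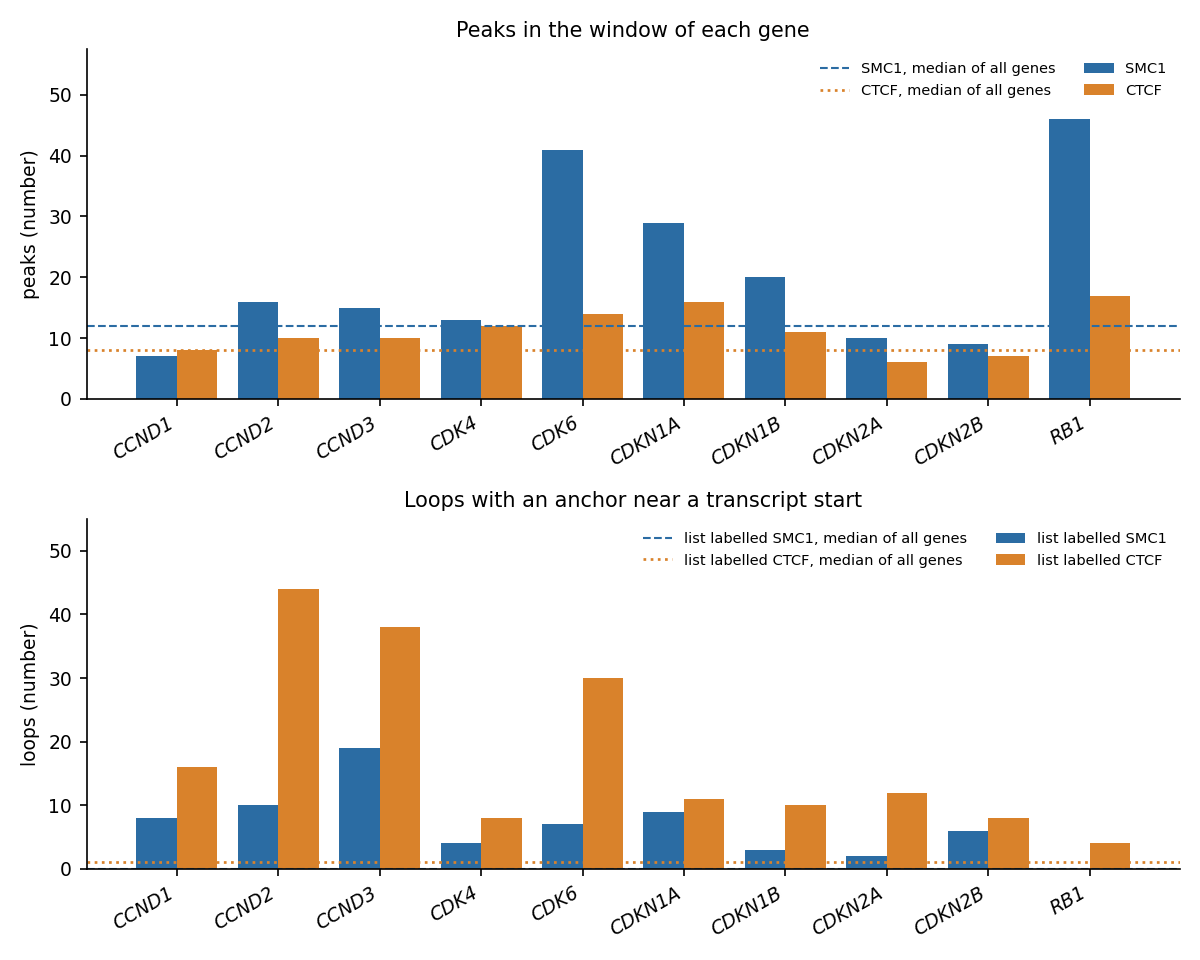
Bars give the number of peaks in the window of each gene (upper panel, SMC1 and CTCF) and the number of loops with an anchor near a transcript start (lower panel, by the label of the list), with dashed and dotted lines at the medians of all 19970 genes. RB1 had the most SMC1 peaks, 46, and no loop labelled SMC1, while CCND1 had 7 SMC1 peaks and 8 such loops.

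Peaks of both proteins often coincided. Of the 197 SMC1 peaks, 80 overlapped a CTCF peak by at least 1 bp, a share of 40.6% (34 to 47.6), against 47.1% of all SMC1 peaks. Of the 105 CTCF peaks, 86 overlapped an SMC1 peak, a share of 81.9% (73.5 to 88.1), against 75.9% of all. SMC1 peaks that overlapped CTCF had a median −log10 q of 38 and a median width of 995 bp, and the 117 others 6.72 and 452 bp. CTCF peaks that overlapped SMC1 had a median −log10 q of 24.2, and the 19 others 6.46. Overlapping peaks were thus the stronger ones for both proteins, as they were among all peaks, where the medians were 34.1 against 7.40 for SMC1 and 33.7 against 5.67 for CTCF. By gene, the share was highest at CCND1, with 100% of the 7 SMC1 peaks (64.6 to 100). It was lowest at RB1, with 23.9% of the 46 (13.9 to 37.9). These genes were picked as the extremes, and peaks of a gene may not be independent, so their intervals cannot test a difference between genes.

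The cyclin genes differed in how peaks were laid out. At CCND1 the leading SMC1 peak had a −log10 q of 209.5 and its summit lay in an intron, 255 bp from an annotated transcript start and 2.30 kb into the gene, at an 8.90-fold enrichment over the local background. The CTCF peak at the same place reached 285.9 at 16.3-fold. At the start of the gene itself both proteins were weak, with −log10 q of 20.2 for SMC1 and 6.81 for CTCF. The CCND1 window was otherwise sparse on the upstream side, where 1 SMC1 peak lay 94.0 kb and 1 CTCF peak 93.8 kb away, and richer downstream, where a CTCF peak in an intron of LTO1 reached 317.4.

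At CCND2 the leading site was again inside the gene. The SMC1 peak at chr12:4275265-4277317, in an intron 7.15 kb from the gene start, reached a −log10 q of 225.6, and the CTCF peak within it 330.8 at 15.7-fold. A second, weaker pair of peaks stood 655 bp (SMC1) and 601 bp (CTCF) before the start, with −log10 q of 38 and 38.8. In CCND3 the leading SMC1 peak, with a −log10 q of 239.7, lay 5.99 kb into the gene, and the CTCF peak beside it had 179.1. CCND3 had no CTCF summit within 1 kb of a start, and the SMC1 peaks there were weak at the outermost start (5.15 and 6.66) but reached 42.9 at 108.6 kb into the gene, 2 bp from an inner start. One of the weak peaks was nearer to the start of TAF8, a divergent neighbour, than to that of CCND3.

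The kinase genes contrasted in length and in number of peaks. CDK6 spans 231.7 kb, and its window held 41 SMC1 peaks, at percentile 99.5 of all genes, and 14 CTCF peaks, at percentile 83.6. That window is longer than most, at 331.7 kb. Its density of 12.4 SMC1 peaks per 100 kb was behind only CDKN1A (14.5) among the 10 genes, and was not set beside all genes. Of the 36 SMC1 peaks inside the gene body, 9 overlapped CTCF. The strongest pair stood at an exon 3.33 kb from the gene start, with −log10 q of 156.9 for SMC1 and 205.9 for CTCF, and the printed CDK6 sequence is from it. CDK4, which spans 8.29 kb, had 13 SMC1 and 12 CTCF peaks, and 10 of each overlapped the other. Its CTCF peak 874 bp before the gene start, in an intron of the neighbouring gene MARCHF9, was the strongest at any start of the 10 genes, with a −log10 q of 365.4, while the SMC1 peak there reached 73.9.

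Among the CIP/KIP genes, CDKN1A had no summit of either protein within 1 kb of an annotated start. The nearest strong pair lay in an exon 1.92 kb (SMC1) and 1.89 kb (CTCF) from a start, with −log10 q of 176.0 and 278.3. Its surroundings were dense, with 29 SMC1 peaks (14.5 per 100 kb, the highest of the 10 genes) and 16 CTCF peaks. They held the strongest SMC1 peak of all 10 windows, 52.9 kb before the gene, with a −log10 q of 289.9, and the strongest CTCF peak, 89.8 kb after the start in an intron of CPNE5, with 411.3. CDKN1B had 20 SMC1 peaks and 11 CTCF peaks, and each of those 11 overlapped an SMC1 peak. SMC1 was found at 4 CDKN1B sites within 1 kb of a start, of which the strongest had a −log10 q of 50.9 and lay 5 bp from a start, whereas the CTCF peaks near starts had 13.2 and 4.32.

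The INK4 genes lie next to each other on chromosome 9 and share most of their windows, so that 9 SMC1 and 6 CTCF peaks were counted for both. Their strongest peaks were below those of each cyclin gene, with a maximum −log10 q of 91.2 for SMC1 and 77.0 for CTCF. Both maxima sat on the CDKN2B start, with summits 9 bp and 5 bp from a transcript start. At CDKN2A the strongest start peaks, with 66.6 for SMC1 and 65.5 for CTCF, lay 512 bp and 439 bp before the outer start, from which the p14ARF transcript is read, and a separate SMC1 peak without CTCF overlap stood 145 bp from an inner start with 17. RB1, which spans 295.7 kb, had the most SMC1 peaks, 46, or 11.6 per 100 kb, with a median −log10 q of 7.27, the lowest of the 10 genes. Its SMC1 peak nearest the gene start, with a −log10 q of 46.6, missed the 1 kb limit at 1033 bp. The only peak within that limit was a CTCF peak at an inner start, with 5.11.

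**Figure D2:**
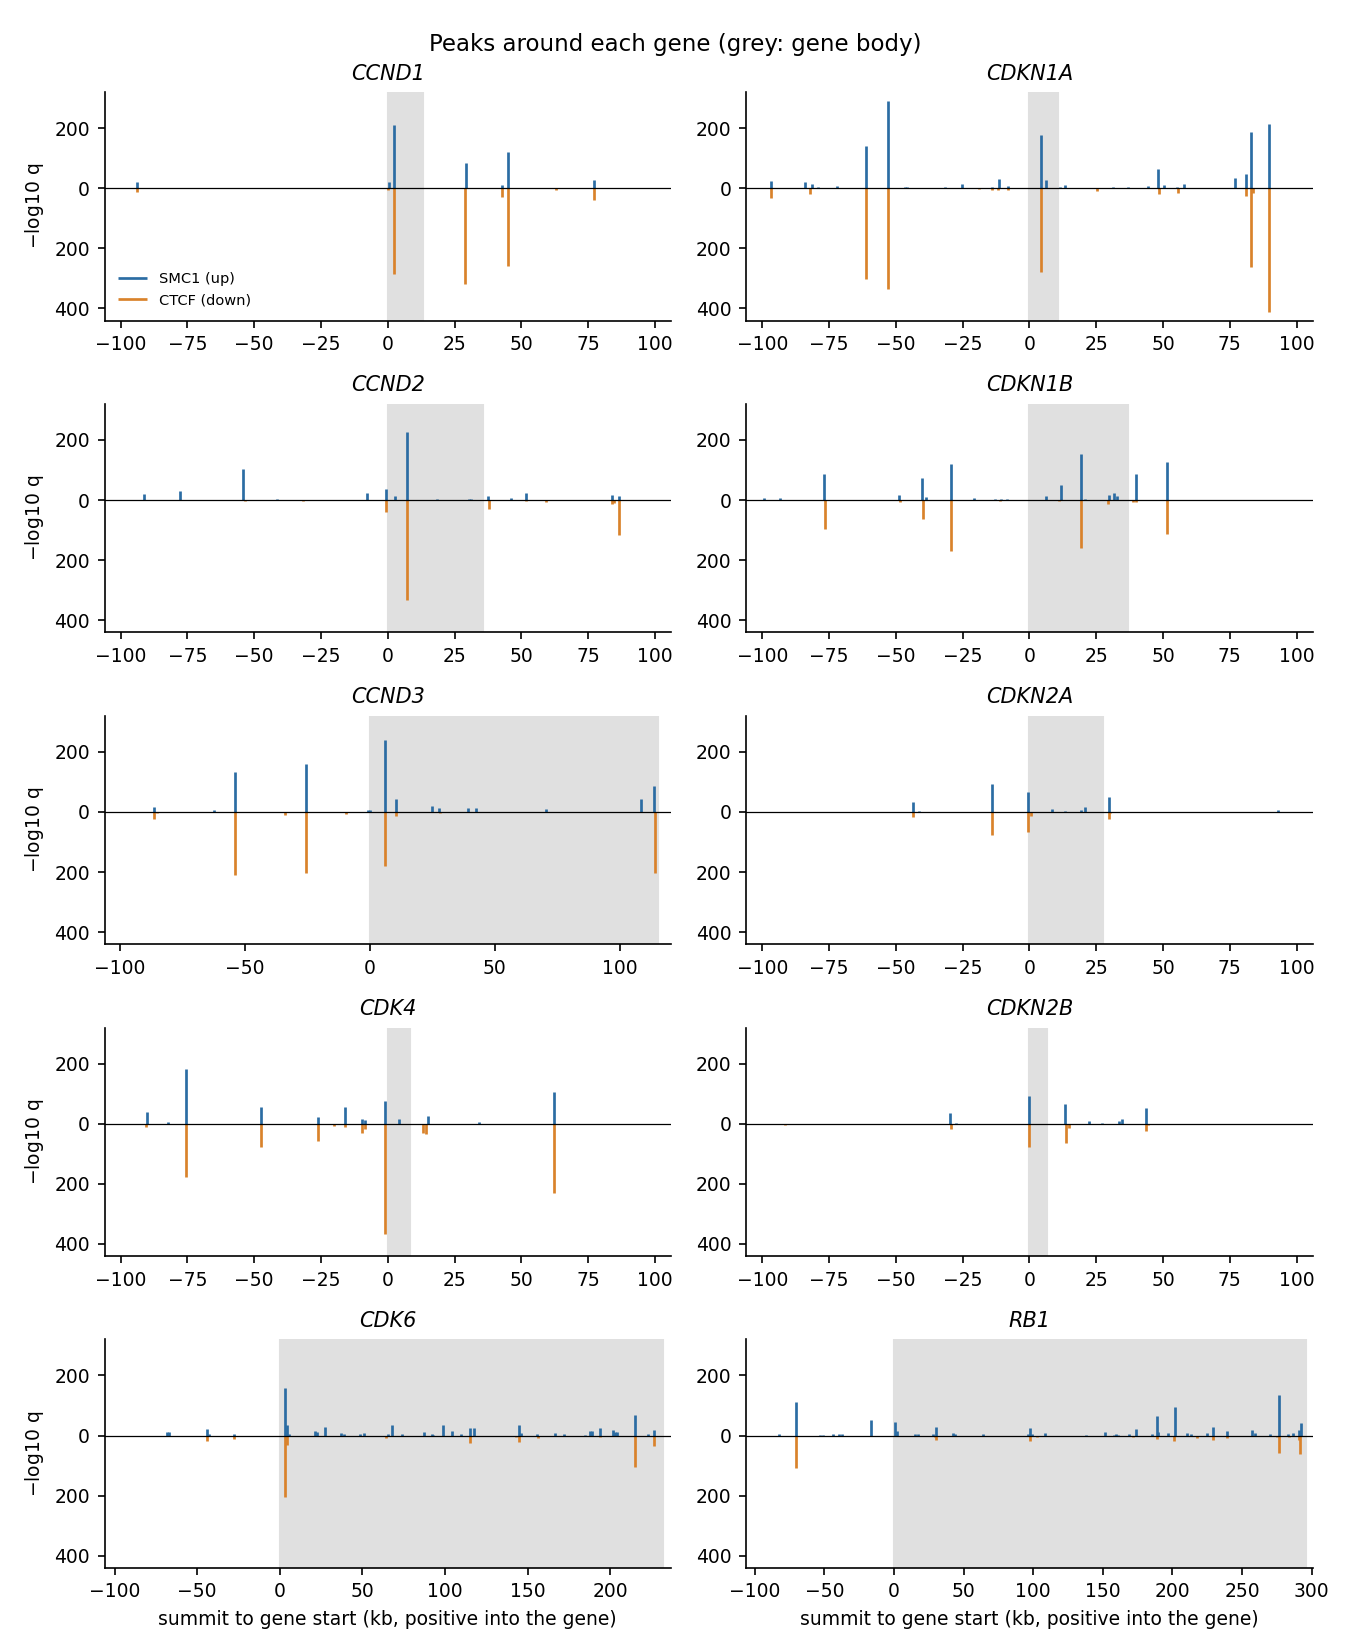
Each panel gives 1 gene, with the distance of each summit from the gene start on the horizontal axis (kb, positive into the gene), −log10 q on the vertical axis, SMC1 drawn upwards and CTCF downwards, and the gene body in grey. Tall SMC1 and CTCF lines stand opposite each other in most panels, and the many short SMC1 lines inside CDK6 and RB1 mostly have no CTCF partner.

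Loops of the D-type cyclin genes reached far, and nearly all those of a gene ran in 1 direction. All 8 CCND1 loops labelled SMC1 and all 16 labelled CTCF ran upstream, over 340 to 545 kb in the first list and 125 to 545 kb in the second. In the list labelled SMC1 the strongest went from the anchor over the internal CTCF site to chr11:69105001-69110000, 533.7 kb upstream in TPCN2, with 47 read pairs (34.5 to 62.5) where 1.80 were expected, a ratio of 26.1. The list labelled CTCF had 24 pairs (15.4 to 35.7) in the same bins, a ratio of 12.1. The bin with most pairs in the list labelled CTCF was chr11:69290001-69295000, beside the start of MYEOV and 348.7 kb upstream, with 84 pairs (67.0 to 104) against 4.31 expected, and 39 pairs in the other list. The median ratio of CCND1 loops was 10.2 and 8.09 in the lists labelled SMC1 and CTCF, whereas the medians of all loops were 4.0 and 4.03. These loops were also longer, with median spans of 520 and 442.5 kb against 130 and 125 kb for all loops. No loop of the 10 genes had fewer than 12 pairs, so a listed loop with few expected pairs had a high ratio. Ratios were not compared at equal span. No loop of either list went from CCND1 towards the strong peaks downstream of it.

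CCND2 loops also ran upstream in all 10 and all 44 cases, and 44 put the gene at percentile 99.8 for the list labelled CTCF. The top bin pair was the same in both lists, joining the internal site to chr12:4105001-4110000, 162.3 kb before the gene start, with 36 pairs (25.2 to 49.8) in the list labelled SMC1 and 124 (103 to 148) in the list labelled CTCF. The bins around it, from 102.3 to 167.3 kb upstream, held no protein-coding start. The CCND2 and CCND2 partner sequences printed above are the motifs at the ends of that loop, and they point at each other. Further loops reached PARP11, 397.3 kb upstream, with 16 pairs in the list labelled CTCF.

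CCND3 had 19 and 38 loops. Those of the site near its outer start ran downstream, through the gene and beyond it. The top pair, chr6:42040001-42045000 with chr6:41845001-41850000 in an intron of USP49, had 75 read pairs (59.0 to 94.0) in the list labelled SMC1 and 254 (224 to 287) in the list labelled CTCF, at ratios of 9.85 and 17.9. Its longest loops, over 265 and 270 kb, ended beside FRS3 and PRICKLE4. The 3 anchors at inner starts, near the other end of the gene, carried 1 loop each labelled SMC1 and 2 to 7 labelled CTCF, most of them towards the outer start. Starts of USP49, MED20 and BYSL, a ribosome assembly factor, lay within 5 kb of further partner anchors.

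CDK6 loops ran both ways in the list labelled CTCF, with 12 upstream, 13 downstream and 5 between anchors that were both near its starts. Of its 7 loops labelled SMC1, 6 ran downstream. The top pair joined the anchor near the outer start to chr7:92620001-92625000 near the other end of the gene, 210 kb away and close to an inner start, with 37 pairs (26.1 to 51.0) labelled SMC1 and 142 (120 to 167) labelled CTCF. The same far end was joined to chr7:93055001-93060000, 220.9 kb upstream of the gene, with 75 pairs (59.0 to 94.0) in the list labelled CTCF, and the outer start to that bin with 58 pairs (44 to 75). Neither of those bin pairs was in the list labelled SMC1. CDK4 had 4 and 8 loops with low ratios, at medians of 3.0 and 3.36. The top pair, 15 kb long, ended at chr12:57770001-57775000 among the starts of CYP27B1, METTL1 and EEF1AKMT3, with 99 pairs (80.5 to 121) labelled SMC1 and 74 (58.1 to 92.9) labelled CTCF. Another ended at ATP23, 151.5 kb upstream, with 49 and 30 pairs.

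The single bin pair with the most read pairs of the 10 genes, in either list, was at CDKN1A. This pair, chr6:36680001-36685000 with chr6:36620001-36625000, 54.0 kb before the gene at its strongest SMC1 peak, had 141 pairs (119 to 166) labelled SMC1 and 287 (255 to 322) labelled CTCF, at ratios of 5.11 and 6.05. On the other side the same anchor reached CPNE5 at 81.0 kb with 80 (63.4 to 99.6) and 180 (155 to 208) pairs. No CDKN1A loop was longer than 85 kb. CDKN1B had 3 and 10 loops. Its short loop to APOLD1, labelled CTCF, held 139 pairs (117 to 164) but at a ratio of 2.49, while the loop to chr12:12375001-12380000 in BORCS5, 308.0 kb upstream, held 14 pairs labelled SMC1 and 48 labelled CTCF, at ratios of 4.91 and 5.82. The longest loop of the 10 genes, over 620 kb, joined CDKN1B to BCL2L14 with 18 pairs (10.7 to 28.4). It was labelled CTCF and had no match within 15 kb in the other list.

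The INK4 loops all ended in or beside MTAP, which encodes a methionine salvage enzyme and is the next protein-coding gene downstream. CDKN2B had 6 and 8 loops and CDKN2A 2 and 12, and the bin chr9:21810001-21815000 was a partner of both. From CDKN2B it had 30 pairs (20.2 to 42.8) labelled SMC1 and 110 (90.4 to 133) labelled CTCF, and from CDKN2A 18 (10.7 to 28.4) and 37 (26.1 to 51.0). The expected pairs labelled CTCF were 11.3 from CDKN2B and 7.9 from CDKN2A, at ratios of 9.72 and 4.68. Those labelled SMC1 were 4.84 and 3.86, at ratios of 6.2 and 4.66. The difference between the genes was not tested. RB1 had the fewest loops of the 10 genes, none labelled SMC1 and 4 labelled CTCF, against medians of 0 and 1 over all genes. Those 4 loops held 13 to 16 pairs each, and none had a match within 15 kb in the other list. They ran 100 to 285 kb downstream to introns near the end of RB1 itself, where its strongest SMC1 peak lay, with a −log10 q of 135.3, and none began at a CTCF summit.

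**Figure D3:**
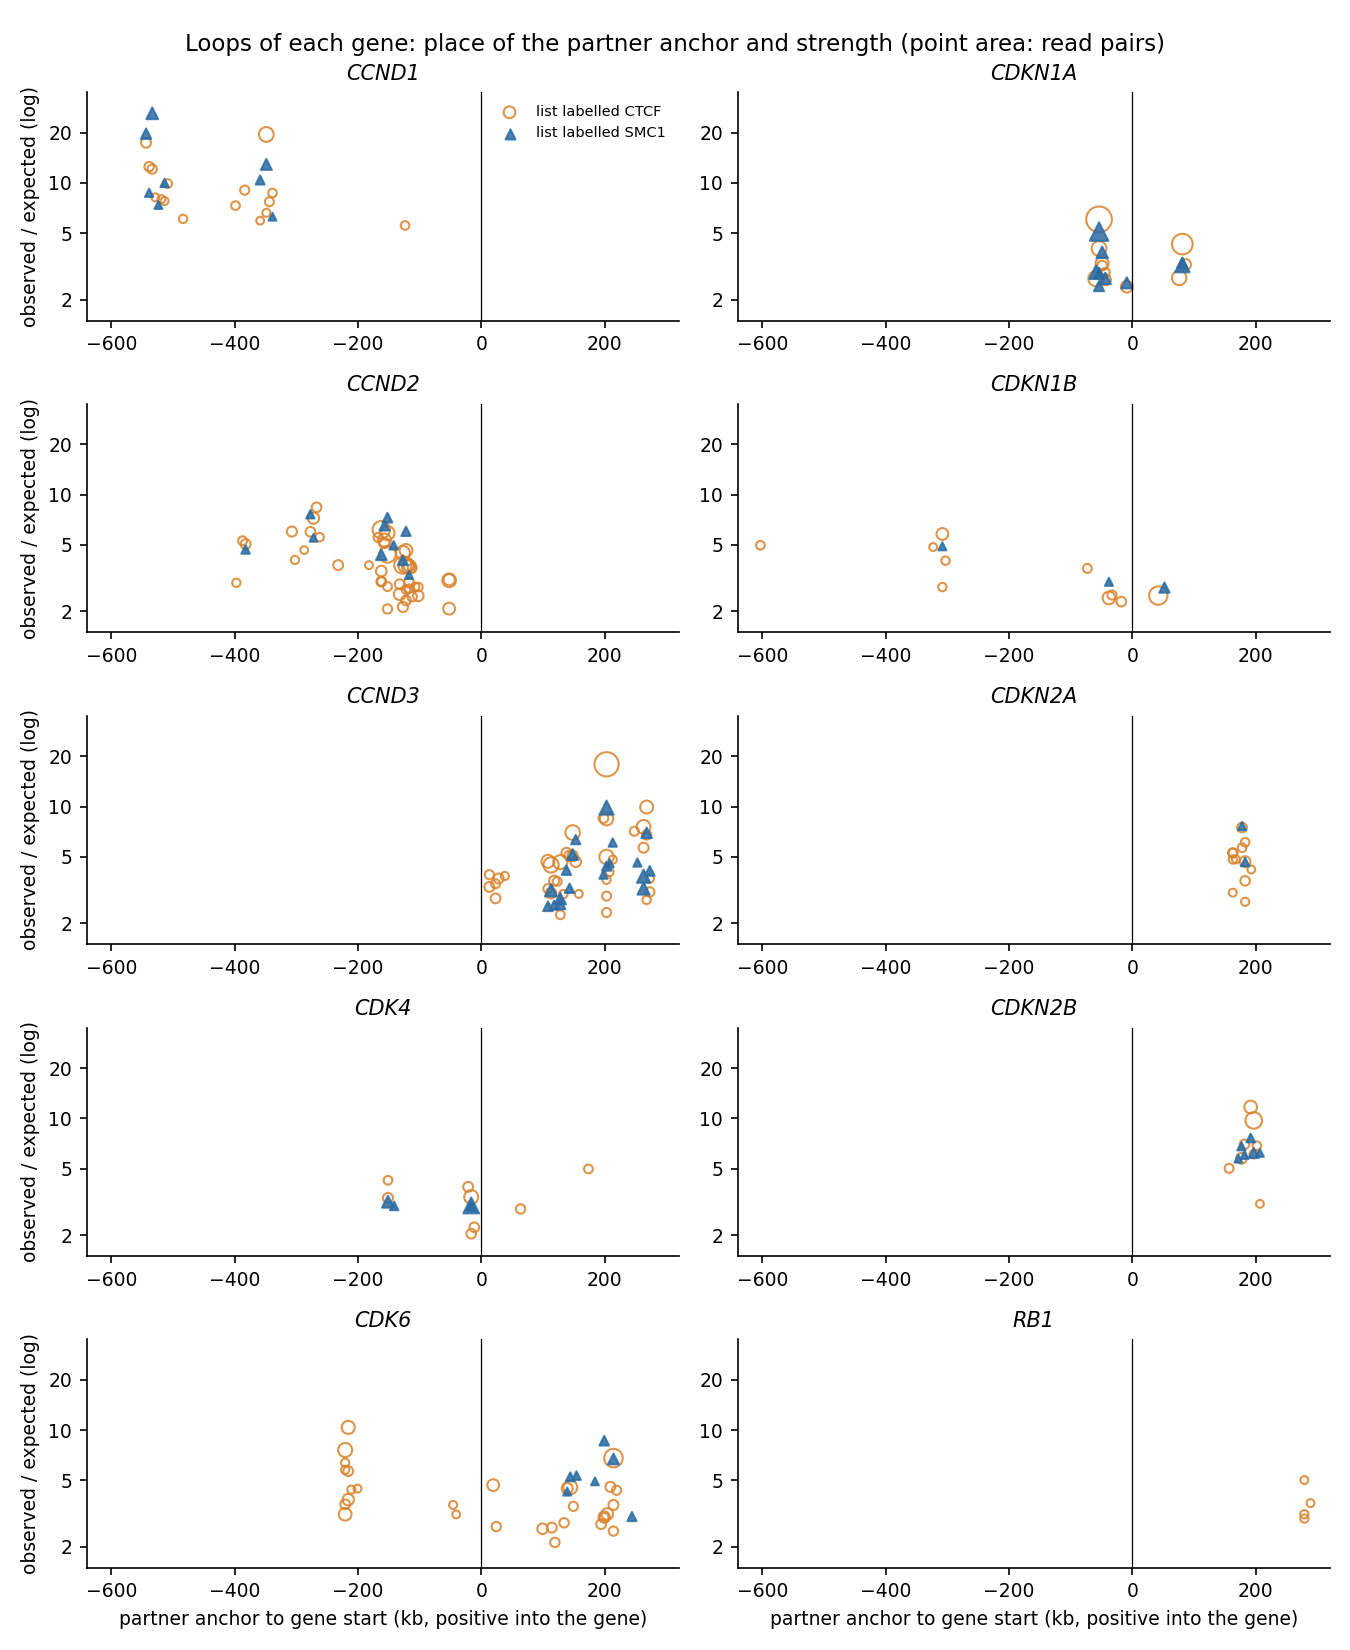
Each panel gives 1 gene, with the distance of the partner anchor from the gene start on the horizontal axis (kb, positive into the gene), observed over expected read pairs on a log axis, and the area of a point in proportion to its read pairs on top of a minimum size. CCND1 and CCND2 have points only on the upstream side, CCND3, both INK4 genes and RB1 only on the downstream side, and CDK4, CDK6, CDKN1A and CDKN1B on either side.

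The lists overlapped to a large extent at these genes. Of the 68 loops labelled SMC1, 67 had a loop labelled CTCF within 15 kb at each anchor, 98.5% (92.1 to 99.7), and of the 180 labelled CTCF, 135 had one labelled SMC1, 75% (68.2 to 80.8). Of these, 54 had the same bins in both lists. Over the whole lists, 19336 loops had the same bins, of 28012 labelled SMC1 and 80487 labelled CTCF. The share matched within 15 kb was not computed over all loops, so the overlap cannot be called particular to these genes. The list labelled CTCF held more pairs in 41 of the 54, at a median quotient of 1.75, against 1.64 over all 19336 such loops. The quotient differed by gene. It ran from 1.69 to 5.85 over 9 CCND2 loops and from 0.51 to 2.15 over 7 CCND1 loops, and was below 1 for both CDK4 loops, at 0.61 and 0.75. These are quotients of raw pairs, and the list labelled CTCF held 3.38 times the pairs of the other in total. For the ratio to expected, the median quotient was 1.1, against 1.19 over all such loops. Both CDK4 loops had the higher ratio in the list labelled CTCF (3.38 against 3.01, and 3.34 against 3.17). CCND2 loops went either way. Loops of 1 gene share an anchor and are not independent.

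**Figure D4:**
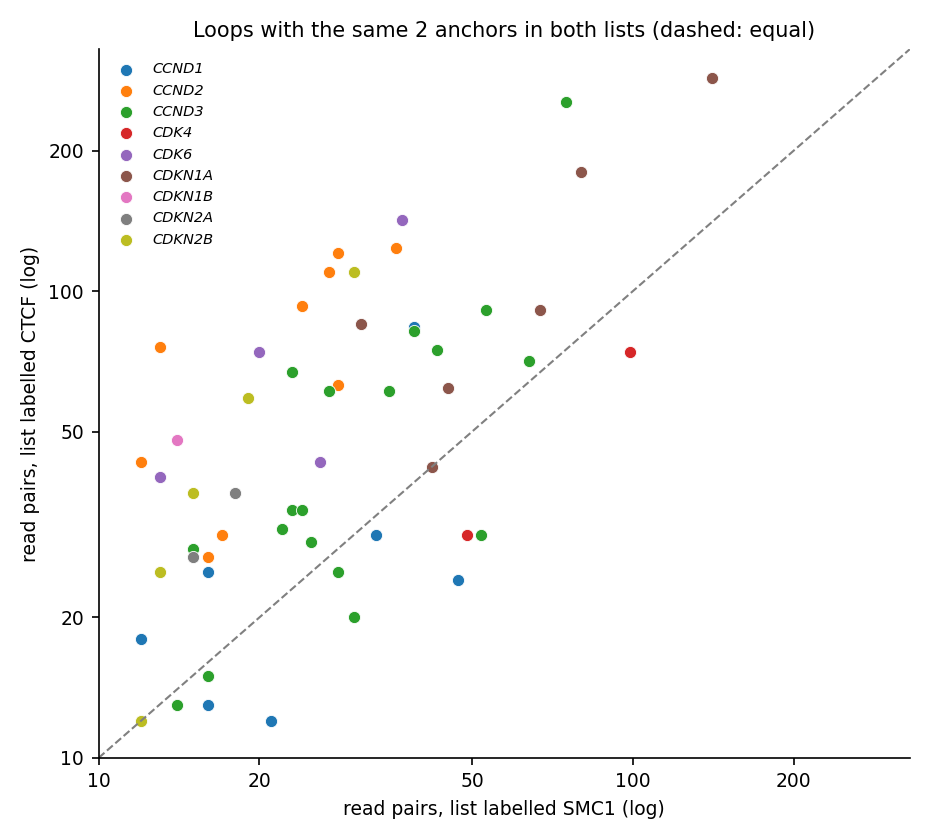
Each point is 1 loop with the same anchors in both lists, with its read pairs in the list labelled SMC1 on the horizontal and in the list labelled CTCF on the vertical log axis, coloured by gene, and the dashed line marks equal counts. Of the 54 points, 41 lie above the line, the CCND2 points all do, and both CDK4 points lie below it.

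Whether the loops of a gene anchor ran ahead of its CTCF motif, that is, towards the side to which the motif points, depended on how the motif was searched. With a match of at least 7 bits within 50 bp of a CTCF summit, 11 anchors near a start carried 156 loop ends in both lists together, of which 83 had the partner ahead. Such matches were found at 35.6% of all CTCF summits and at 19.7% of positions 1000 bp away. By list, this was 29 of 54 ends labelled SMC1, or 53.7%, and 54 of 102 labelled CTCF, or 52.9%, and both were below the shares over all anchors of those lists, 69.1% and 68.9%. With a match of at least 10 bits within 200 bp, the search added after seeing the data, 15 anchors carried 178 ends, of which 156 had the partner ahead. This was 58 of 60 labelled SMC1, or 96.7%, and 98 of 118 labelled CTCF, or 83.1%, against 79.2% and 80.4% over all anchors.

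The anchors that turned between the searches were at CCND3, CDK6 and CDK4. In the CCND3 anchor near the outer start the best match within 50 bp was on the plus strand with 8.8 bits, and 0 of 35 ends lay ahead of it, whereas the printed match is on the minus strand with 17.2 bits, and 35 of 35 lay ahead. The CDK6 anchor had 2 of 22 ends ahead of a match of 9.8 bits in the narrow search and 20 of 22 ahead of the printed one, of 14.7 bits. At an inner CDK4 anchor, 2 of 2 ends lay ahead in the narrow search and 0 of 2 in the wide one. The anchors of CCND1 (23 of 23), CCND2 (32 of 32) and CDKN2B (13 of 13) whose sequences are printed had every loop ahead in both searches. At CDKN1A, whose printed motif scored highest at 20.4 bits, 9 of 13 lay ahead in both, since its anchor looped both ways. The printed anchors of CDK4 (7 of 7), CDKN1B (6 of 6) and CDKN2A (7 of 7) had a match only in the wide search. The inner CCND3 anchor chr6:41935001-41940000 had 2 of 7 ends ahead in both searches, and 4 anchors with 11 ends, at CCND2, CDK4 and CDKN2A, had every loop behind in the wide one. Many of these loops join neighbouring bins and many are in both lists, so the ends are not independent.

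**Figure D5:**
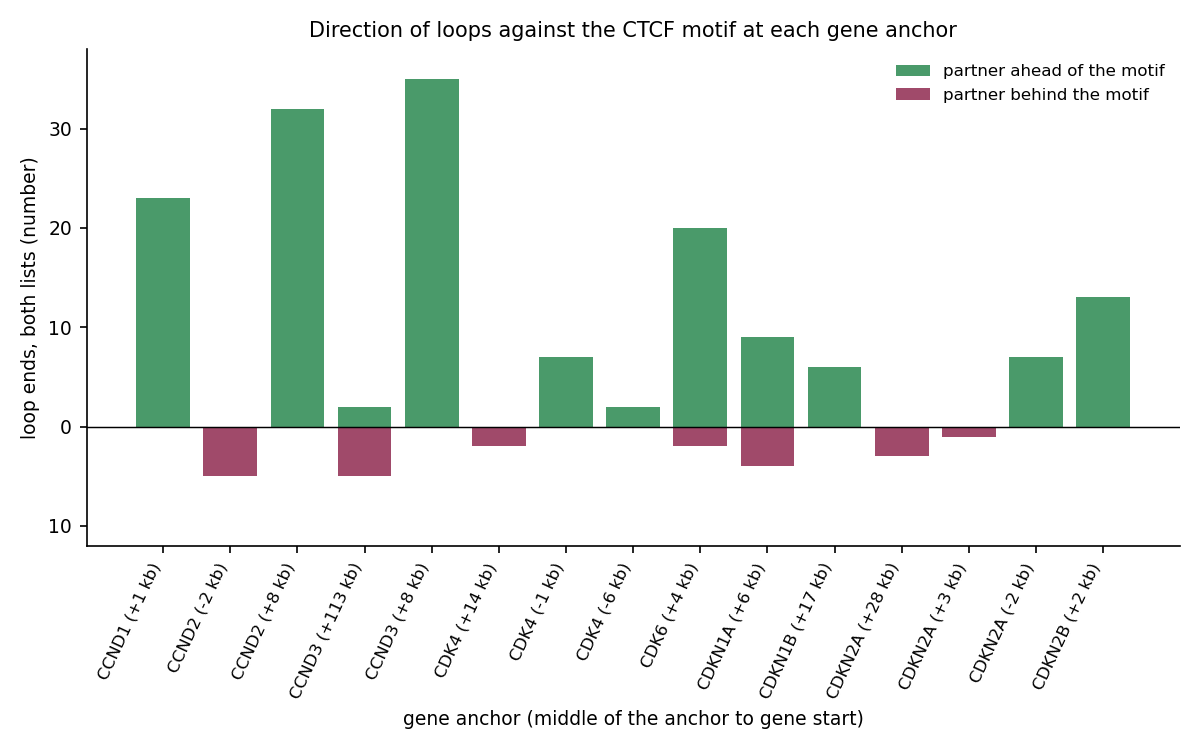
Bars give, for each of the 15 gene anchors with a motif of at least 10 bits near a CTCF summit, the number of loop ends of both lists whose partner lies ahead of the motif (upwards) or behind it (downwards), and labels give the distance of the middle of the anchor from the gene start. The anchors of CCND1, CCND2 and CCND3 with most loops have 23, 32 and 35 ends, all ahead, and in the search within 50 bp the 35 at CCND3 all lay behind.

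Where the best motif of the whole 5 kb anchor was taken instead, as a match of at least 7 bits anywhere in it, 37 of 68 loops labelled SMC1 had motifs that point at each other, 54.4% (42.7 to 65.7), and 64 of 179 labelled CTCF, 35.8% (29.1 to 43.0), against 45.4% and 44% of all loops. With the motif within 50 bp of a CTCF summit, 5 of 17 loops labelled SMC1 (29.4%, 13.3 to 53.1) and 9 of 23 labelled CTCF (39.1%, 22.2 to 59.2) pointed at each other, against 43.4% and 43.6% of all, and 3 and 4 pointed away. With at least 10 bits within 200 bp, 13 of 18 loops labelled SMC1 (72.2%, 49.1 to 87.5) and 18 of 30 labelled CTCF (60.0%, 42.3 to 75.4) pointed at each other, against 57.9% and 59.5% of all, and 0 of those 18 and 30 pointed away. Many of these loops share an anchor, and 1 CCND2 anchor carried 22 loops labelled CTCF, so 1 motif can set the direction for many. The loops are not independent, and the intervals cannot test a difference from all loops. Only 37 of the 68 and 68 of the 180 loops had a CTCF peak at both anchors (54.4% and 37.8%, against 57.9% and 47.7% of all), whereas 51 and 130 had an SMC1 peak at both (75% and 72.2%, against 67.3% and 70.9%).

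Promoter sequence was looked at in RefSeq (GRCh38.p14), in which 12 promoters of 300 bases matched 8 of the genes, all but CCND1 and CCND2. Their ratio of observed to expected CG dinucleotides was between 0.72 and 1.13 in 10 of the 12 promoters, and 0.12 and 0.00 in an inner CCND3 and an inner RB1 promoter. A ratio of at least 0.6 was found in 49.1% of all 35116 promoters. The CDKN2B promoter held the motif of the printed CDKN2B sequence. Promoters of CDK6, CDKN2A, CDKN1A, CCND3 and CDKN1B also had a match of at least 10 bits, with the highest, 15.4 bits, at CDK6. Those of CDK4 (6.85), RB1 (6.89) and an inner CCND3 start (9.79) did not. Of all promoters, 44.4% had such a match.

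The rest of the G1 to S pathway was described by 20 further genes, which encode E-type and A-type cyclins, CDK2, E2F and DP factors, RBL1 and RBL2, further inhibitors and their regulators. Of these, 17 had an SMC1 and 13 a CTCF summit at a start, and 8 had a loop labelled SMC1 and 15 one labelled CTCF. Over all protein-coding genes, these shares were 62.6%, 46.7%, 35.1% and 59.0%. The medians of the 20 genes were 0 and 4 loops, against 0 and 1 for all genes. CDKN2D, which encodes p19 of the INK4 family, had 9 and 18 loops, TFDP2, a DP partner of E2F, 3 and 19, and E2F2 11 and 9. CCNA2, CDKN1C, TFDP1, RBL1 and RBL2 had none in either list. The difference between the 10 and the 20 genes was not tested.

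The same counts were made for 6 B cell genes and 7 genes of other tissues. They do not test the cell type, because such peaks and loops are common over all protein-coding genes (62.6%, 46.7%, 35.1% and 59.0%). Of the B cell genes MS4A1, CD79A, CD79B, CD22, PAX5 and CR2, 6 had an SMC1 and 4 a CTCF summit at a start, and 4 had a loop labelled SMC1 and 6 one labelled CTCF. Of ALB, INS, MYH7, GFAP, KRT5, TTR and NEUROD1, these numbers were 3, 2, 3 and 4, so peaks and loops were not confined to genes of the B cell.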

How the data were processed

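HiChIP of SMC1 (FA-EGS) and CTCF (FA) in the HG00731 LCL was analysed from 1 pooled peak list and 1 pooled loop list per target. Alignment by the authors used BWA-MEM against hg38 with a MapQ limit of 30, followed by removal of duplicates and, for peaks, by MACS3 3.0.1 (q-value 0.01, extension size 200, no input). The height of each peak was deposited by the authors as the ratio of the summit to the local background (fold enrichment), and the authors gave its significance as the −log10 of the q-value. For loops, MAPS counted read pairs in 5 kb bins, and the authors deposited the raw count, the expected count and a false discovery rate (an adjusted p-value, not used further). Loop counts summed to 788356 read pairs (labelled SMC1) and 2666327 (labelled CTCF). The depth of each replicate was not used here.

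Summits, starts and anchors were compared with Python 3.11.15, NumPy 2.4.6 and pandas 2.3.3, in coordinates counted from 1, with GENCODE release 44. All 10 genes were named. For each, the peak with the highest −log10 q, the peaks at starts, and the loops with the most pairs and the longest span were described, with genes whose start lay within 5 kb of the partner anchor. Of the other G1 to S genes, the 3 with most loops were named, and those without a loop after their values were seen. The motif was learned by expectation maximisation, checked on simulated data, and searched within 50 bp of summits with at least 7 bits. The search within 200 bp with at least 10 bits, and the use of the anchor with most loops, were added after seeing the data. Genes and lists were chosen with earlier results of these data known. One gene of the B cell list is not reported here.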

Additional observations from a re-analysis of the deposited data

How the results depend on the processing

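No paired analysis was possible because the deposited lists pool both replicates of each target, and for the same reason no replicate could be left out. Of 56 alternatives to 15 results, 36 stayed near the reported value and 20 moved it. Near is a loose rule for counts. It takes in 127 against 180 loops labelled CTCF, and 6 against 8 genes with an SMC1 summit at a start. For shares it means a value inside the interval of the reported one. A −log10 q of at least 10 left 116 SMC1 and 68 CTCF peaks at the 10 genes, and with it 51.7% of SMC1 peaks overlapped CTCF, whereas an overlap of at least 50% of the SMC1 peak gave 25.9%. Within 500 bp of a start, CTCF summits were found at 4 genes. With a start inside the anchor, 43 loops labelled SMC1 and 116 labelled CTCF remained, and with at least 20 pairs 42 labelled SMC1. Exchanging the lists gives 180 loops for SMC1 and 68 for CTCF by construction. With a tolerance of 5 kb the matched shares were 91.2% and 58.9%, and with the same bins 79.4% and 30%, for the lists labelled SMC1 and CTCF. The share of loops with motifs that point at each other was 29.4% in the list labelled SMC1 with the best motif within 50 bp of a summit, 72.2% (SMC1) and 60.0% (CTCF) with at least 10 bits within 200 bp, and 54.2% (CTCF) with at least 13 bits. The share of loop ends ahead of the motif of the gene anchor went from 53.7% to 96.7% (SMC1) and from 52.9% to 83.1% (CTCF) with at least 10 bits within 200 bp, a search chosen after seeing the data. The cause of these shifts was not tested. Peak and loop lists stop at the thresholds of the callers, so a gene without a loop may have contacts below them. Windows of long genes are longer, and CDKN2A and CDKN2B share theirs.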
